A study of Mus musculus with 6 samples.

Results

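The transcripts of the ID proteins and their partners, the E proteins, were examined in pathogenic Th17 cells. The members were the 6 genes Id1, Id2, Id3, Tcf3, Tcf4 and Tcf12, picked by symbol out of the 16244 genes with values, and each had 1 entry. The comparison was between 3 wild-type (WT) libraries and 3 libraries from mice that carry the RORγtN275D knockin, in which an asparagine of the RORγt ligand-binding domain is replaced by aspartate. Spleen was the labelled tissue, and naive CD4+ T cells of both genotypes were polarised for 3 days towards the pathogenic Th17 fate with IL-6, IL-1β and IL-23. The sources differ on whether TGF-β was also present. The knockin was made on a C57BL/6 background, with no substrain stated. The WT stock was purchased, and the paper names it C57BL/6 in its methods and C57BL/6NJ among its resources. Any substrain difference between the groups cannot be told apart from the mutation. The mice of the study were of both sexes and were 6 to 12 weeks old unless stated otherwise. Whether the sequenced mutant cells carried 1 or 2 mutant alleles, and whether the 3 libraries of a genotype came from separate animals or cultures, is not given in the sources used here. The p-values therefore measure the spread between these libraries, which may be technical.

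E proteins are basic helix-loop-helix transcription factors that bind, as dimers, to the short DNA element called the E-box. Tcf3 encodes E2A (the splice forms E12 and E47), Tcf12 encodes HEB and Tcf4 encodes E2-2, which is a different gene from the Wnt effector Tcf7l2 that is sometimes called TCF4. ID proteins share the helix-loop-helix domain but lack the basic region that contacts DNA, so they pair with E proteins and keep them off their sites. In T cells the balance between these families governs development in the thymus and, later, the choice between effector, memory and follicular helper fates.

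Id3 was the member that changed. Its transcript was 55.4% lower in the N275D libraries, while Id2, the other abundant ID gene, averaged 2184 normalised reads in WT and 2188 in N275D. None of the 3 E protein genes passed the test, and their fitted differences were under 0.2 on the log2 scale. Normalised reads are reads divided by a size factor for each library. The test was limma on log2(normalised reads + 1), with Benjamini-Hochberg adjustment over the 11908 genes that averaged at least 10 normalised reads, and a gene was called at an adjusted p under 0.05. All 6 members passed this filter.

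The genotypes differed widely across the transcriptome, so the member counts have to be read against it. Of all genes tested, 50.9% were called at any fold change and 3.59% were called with a change of at least 2-fold. Of the 6 members, 1 was called by either rule. The genotypes did not overlap for 57.7% of all genes tested and for 3 of the 6 members. Each library held between 17659035 and 18510878 reads on genes. WT replicate 3 stood apart from the other WT libraries, since the median squared gene difference, relative to counting error, was 2.95 and 3.02 against replicates 1 and 2 but 1.37 between those replicates. The N275D pairs lay between 1.32 and 1.54. Th17 identity was checked with 9 T and Th17 genes, all of which passed the filter and which summed to between 76904 and 81126 normalised reads in WT and between 89156 and 90222 in N275D.

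The upstream sequences of Id2 and Id3 are shown because these were the most abundant ID genes and only Id3 passed the test. Each is the 250 bases before the gene's RefSeq start, read 5′ to 3′ along the gene's own strand, on the GRCm38.p6 build. Id2 lies on the minus strand and its window is chr12:25096093-25096342. Id3 lies on the plus strand and its window is chr4:136143572-136143821. Capitals mark every match to the motifs searched on both strands, which were the E-box CANNTG, the HIF cores ACGTG and GCGTG, the EGR element GCGTGGGCG (which contains the second HIF core) and the ROR element AGGTCA.
Id2: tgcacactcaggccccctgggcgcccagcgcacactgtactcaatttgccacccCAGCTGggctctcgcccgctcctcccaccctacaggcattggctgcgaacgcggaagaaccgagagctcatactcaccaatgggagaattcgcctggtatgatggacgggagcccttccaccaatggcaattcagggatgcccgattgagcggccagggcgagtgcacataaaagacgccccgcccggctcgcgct
Id3: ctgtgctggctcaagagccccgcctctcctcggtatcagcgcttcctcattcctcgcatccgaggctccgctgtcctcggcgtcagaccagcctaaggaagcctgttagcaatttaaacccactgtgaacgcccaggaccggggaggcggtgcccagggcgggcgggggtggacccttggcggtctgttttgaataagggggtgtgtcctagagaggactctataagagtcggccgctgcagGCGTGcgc

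The Id2 window held 1 E-box, which began 196 bases before the start, and no other motif. The Id3 window held 1 GCGTG, which began 8 bases before the start, and none of the other letters. These letters are common: 66.2% of 32851 promoter windows of this length held an E-box, 28.2% held GCGTG, 16.6% held ACGTG, 14% held the ROR element and 0.536% held the EGR element. Both windows had a GC content of 62.8%. RefSeq promoter sequences were searched for 4 of the 6 members, Id2, Id3, Tcf3 and Tcf12. Windows on chromosome 18, where Tcf4 lies, were left out of this search, and none was matched for Id1. The Tcf3 window held 1 E-box and 2 GCGTG matches. Tcf12 had 3 annotated starts, and an E-box was present in 2 of these windows and the ROR element in the remaining one. One of the windows with an E-box also held a GCGTG. A letter match is a description and is not evidence of binding.

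**Figure D1:**
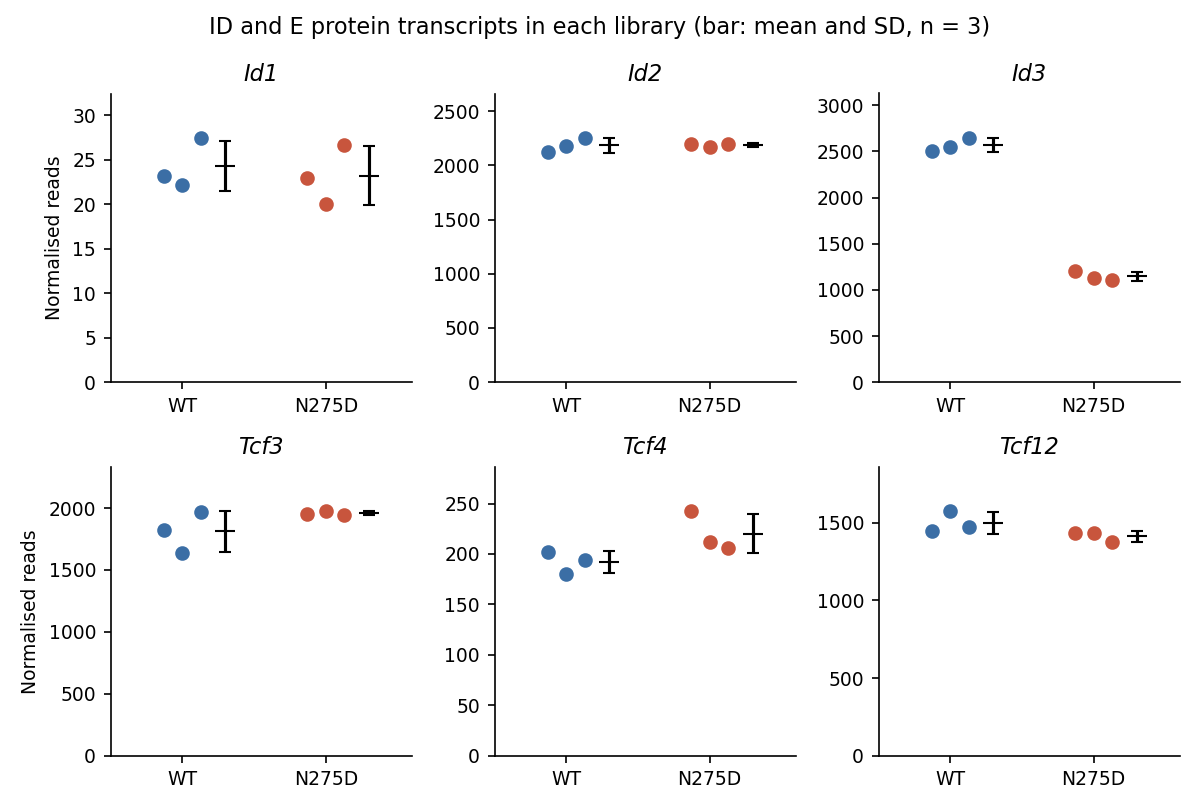
Normalised reads of each ID and E protein gene (vertical axes, from 0) in the 3 WT and the 3 N275D libraries, with points for libraries and the bar for the mean and SD. The Id3 points lie between 2504 and 2650 in WT and between 1109 and 1203 in N275D, whereas those of Id1, Id2 and Tcf3 overlap.

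Among the ID genes, Id3 is the one that antigen receptor signalling induces through EGR factors in developing T cells. It lies on chromosome 4 from 136143822 to 136145392 on the plus strand. Its values were 2504, 2552 and 2650 normalised reads in WT replicates 1 to 3 and 1203, 1129 and 1109 in N275D replicates 1 to 3. Every N275D library was below every WT library by a wide margin, and the spread within each genotype was small (2569 ± 74.4 in WT and 1147 ± 49.5 in N275D, SD, n = 3). The fitted log2 fold change was -1.16 with a standard error of 0.05 and a 95% interval of -1.26 to -1.07 (limma, adjusted p = 9.02e-12). This corresponds to 0.447 of the WT level, with an interval of 0.418 to 0.478. Among all genes tested the median log2 fold change was -0.0026, and Id3 had the 70th lowest value. Without WT replicate 3 the fold change of Id3 was -1.14.

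Id2 is the ID gene associated with effector T cells and innate lymphoid cells. It lies on chromosome 12 from 25093799 to 25096092 on the minus strand. WT libraries held 2119, 2176 and 2256 normalised reads and N275D libraries 2198, 2166 and 2199. The N275D values all fell inside the WT range. The log2 fold change was 0.00 with a 95% interval of -0.08 to 0.09 (limma, adjusted p = 0.954), so the libraries leave room for a ratio between 0.944 and 1.06. Of the 2433 stretches of 50 bases in Id2 exons, 8 also occur in the gene Gm6175, and none of those of Id3, Id1 or Tcf3 was shared with another gene. For Tcf4 and Tcf12 the shared stretches were 0.228% and 0.242% of the total.

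Id1, the classic target of BMP and SMAD signalling, was barely expressed. It lies on chromosome 2 from 152736251 to 152737410 on the plus strand. Its values were 23.2, 22.2 and 27.5 normalised reads in WT and 23.0, 20.1 and 26.7 in N275D. The genotypes overlapped, and at this depth counting error alone is 20.5% of a library's value. The log2 fold change was -0.07 with an interval of -0.53 to 0.39 (limma, adjusted p = 0.823), which covers ratios from 0.694 to 1.31. These libraries therefore leave room for any ratio within this interval. Id4, the remaining ID gene, was at or below 1.01 normalised reads in all libraries and was not tested.

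**Figure D2:**
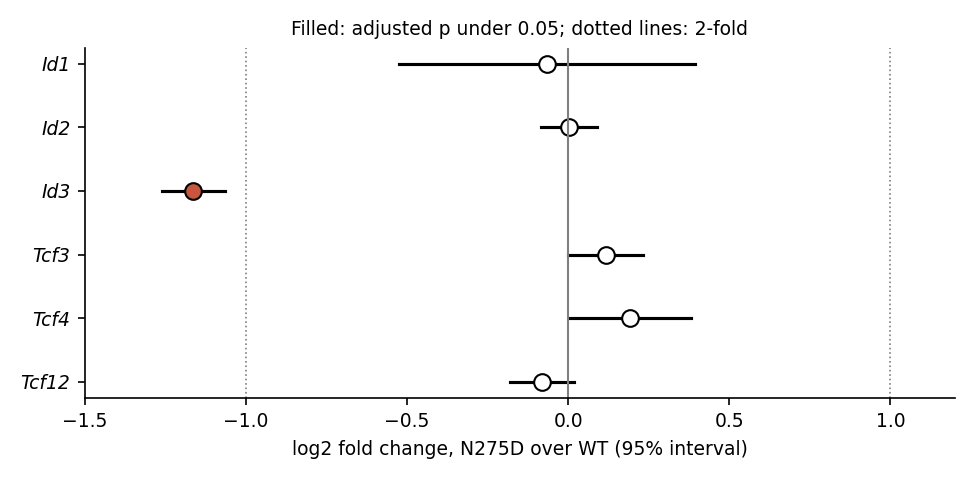
Fitted log2 fold change of N275D over WT (horizontal axis) for the 6 genes, with lines for the 95% interval and dotted lines at a 2-fold change. Id3 sits at -1.16 with its whole interval beyond the 2-fold line, and Id1 has the widest interval, from -0.53 to 0.39.

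Among the E protein genes, Tcf3 gave the most reads. It lies on chromosome 10 from 80409541 to 80433976 on the minus strand and encodes E2A, which acts with HEB in T lineage commitment and at the pre-TCR checkpoint. WT libraries held 1825, 1641 and 1967 normalised reads and N275D libraries 1951, 1976 and 1946. WT replicate 3 reached the N275D range and the other WT libraries lay below it, so the WT libraries varied more (SD 164) than the N275D libraries (SD 16.5). The log2 fold change was 0.12 with an interval of -0.0004 to 0.23 (limma, adjusted p = 0.0897). Without WT replicate 3 it was 0.18 and passed the test (limma, adjusted p = 0.00103), and without WT replicate 2 it was 0.047 (limma, adjusted p = 0.460). The call for Tcf3 therefore depended on which WT libraries entered the fit.

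Tcf12 lies on chromosome 9 from 71844252 to 72111893 on the minus strand and encodes HEB. Its WT values were 1446, 1576 and 1470 normalised reads and its N275D values 1436, 1435 and 1374. All N275D libraries were below all WT libraries, though the highest N275D value, 1436, lay close to the lowest WT value, 1446. The log2 fold change of -0.08 did not pass the test, with an interval of -0.18 to 0.02 (limma, adjusted p = 0.162).

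Tcf4, which encodes E2-2, the E protein that specifies plasmacytoid dendritic cells and is also expressed in B cells, gave the fewest reads of the 3. It lies on chromosome 18 from 69343429 to 69687967 on the plus strand. WT libraries held 202, 181 and 194 normalised reads and N275D libraries 243, 212 and 206. All N275D libraries were above all WT libraries, but 2 of them by little. The log2 fold change was 0.19 with an interval of 0.0049 to 0.38 (limma, unadjusted p = 0.0449, adjusted p = 0.0811). Without N275D replicate 1 it was 0.12.

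Markers of B cells, which express Tcf4, also differed between the genotypes. Of 10 B cell markers, 7 were tested and 6 of these were called higher in N275D, with none lower, and the median log2 fold change was 0.84. Their sum ran from 1146 to 1183 normalised reads in WT and from 1748 to 1807 in N275D. Ebf1 made up most of it, with 967 to 995 in WT and 1414 to 1538 in N275D. Ms4a1, which defines mature B cells, ran from 0 to 1.01 normalised reads in WT and from 3.99 to 9.88 in N275D. Vpreb3 was at or below 1.01 in all libraries. For plasmacytoid dendritic cells, 5 of 8 markers had values, 3 were tested and 1 was called, higher in N275D (Cox6a2, 3.03 to 5.89 normalised reads in WT and 12.0 to 20.7 in N275D). Irf8 (log2 fold change 0.11) and Spib (-0.35) were not called. The sum of these markers was 973 to 1022 in WT and 1025 to 1090 in N275D, and Irf8 made up most of it. The naive CD4+ T cells of the study were isolated by negative selection, a step that removes B cells and dendritic cells. The part of any such cells in the Tcf4 difference was not tested, and in bulk RNA a change in the number of cells of a type and a change in RNA per cell cannot be told apart. Markers of the remaining cell types moved unevenly. Of 4 tested markers of CD8 T and natural killer cells, 3 were called higher (Cd8b1, Eomes and Klrd1), while Cd8a was not called (log2 fold change -0.22) and Klrb1c was at or below 2.02 normalised reads in WT and at 0 in N275D. Their sum ran from 201 to 216 in WT and from 284 to 325 in N275D. Of 7 γδ T cell markers only 3 had values, since the receptor genes Trdc, Trdv4, Tcrg-C1 and Tcrg-C2 had none. Of these 3, Sox13 and Blk were called higher and Cd163l1 was not called. Their sum ran from 39.4 to 52.1 in WT and from 72.1 to 74.2 in N275D. Of 3 tested myeloid markers, Adgre1 was called lower (log2 fold change -1.70) and Cd14 higher (0.99), and the sum ran from 95.9 to 121 in WT and from 112 to 142 in N275D. Of 5 regulatory T cell markers 2 were called higher (Il2ra and Tnfrsf18) and 1 lower (Ctla4, log2 fold change -0.24). Foxp3, which defines these cells, averaged 50.9 in WT and 38.2 in N275D and was not called (-0.40). The sum ran from 39552 to 40931 in WT and from 44890 to 46588 in N275D, and most of it was Il2ra.

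To compare levels between genes, normalised reads were divided by the length of each gene's merged exons and are given per kb. In WT cells the order of levels was Id3 (1434 ± 41.6), Id2 (896 ± 28.4), Tcf3 (448 ± 40.5), Tcf12 (96.4 ± 4.43), Id1 (21.0 ± 2.43) and Tcf4 (7.02 ± 0.395), SD with n = 3. Each neighbouring pair in this order was separated in all WT libraries. In N275D cells Id2 (897 ± 7.79) stood above Id3 (640 ± 27.7), and by merged exons the order was otherwise the same. Tcf3 followed at 485 ± 4.08, Tcf12 at 91.1 ± 2.28, Id1 at 20.03 ± 2.85 and Tcf4 at 8.04 ± 0.714. The place of Tcf4 below Id1 rests on its long merged exons, which total 27382 bases. By the longest transcript Tcf4 was at 22.4 ± 1.26 per kb in WT, where Id1 was at 21.0 ± 2.43, and those neighbours overlapped. In N275D the same measure placed Tcf4 (24.1 to 28.3) above Id1 (17.3 to 23.0) in all libraries.

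The Id3 to Id2 ratio of levels per kb was 1.609, 1.597 and 1.599 in the WT libraries and 0.745, 0.709 and 0.686 in the N275D libraries. Id3 thus changed from the leading ID transcript to the second, and its share of the ID sum was 61.0% ± 0.108 in WT and 41.1% ± 1.03 in N275D (SD, n = 3). The share of Id2 was 38.1% ± 0.101 and 57.6% ± 0.929, with its own level per kb nearly equal in the genotypes. Summed over the ID genes, the level per kb was 2287, 2337 and 2429 in WT and 1593, 1536 and 1544 in N275D. The E protein sum was 552, 514 and 589 in WT and 584, 589 and 578 in N275D, and the genotypes overlapped. By merged exons Tcf3 supplied 81.2% ± 1.94 of it in WT and 83.0% ± 0.360 in N275D. With longest transcripts this share was 70.1% ± 2.61 in WT and 72.6% ± 0.534 in N275D, so its size depends on the length used.

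The ratio of the ID sum to the E protein sum was 4.14, 4.54 and 4.12 in WT and 2.73, 2.61 and 2.67 in N275D. The lowest WT library was well above the highest N275D library. With longest transcripts in place of merged exons the mean ratio was 3.60 in WT and 2.22 in N275D. These are ratios of transcripts and say nothing of protein amounts or of dimers formed. They are given as a description with no test.

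**Figure D3:**
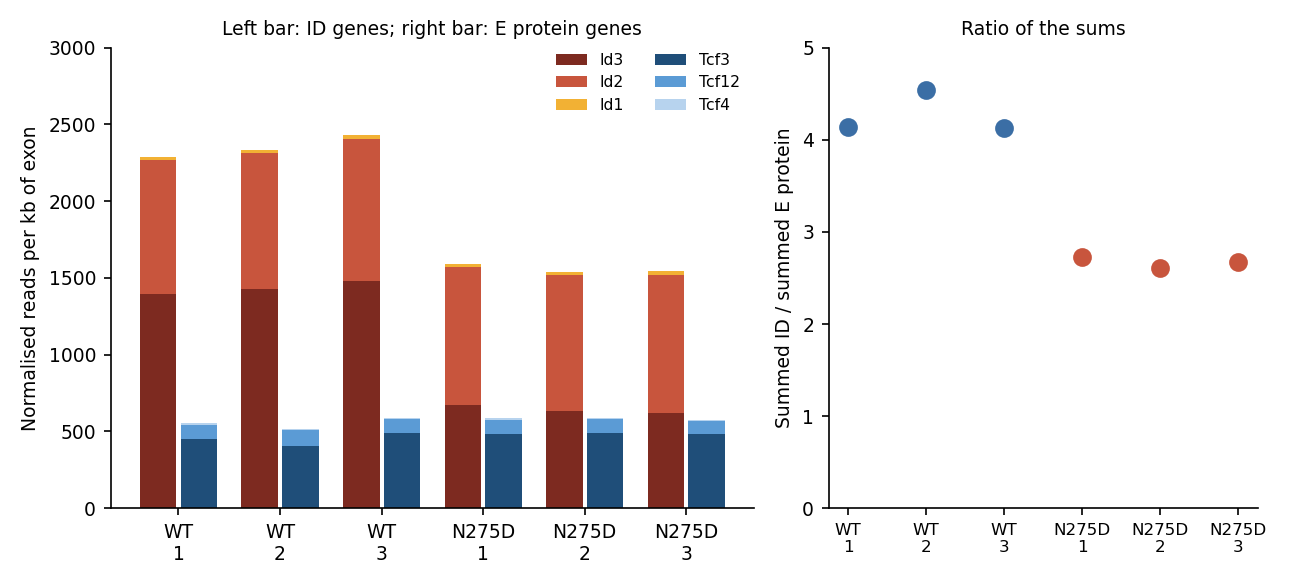
Normalised reads per kb of merged exon (left panel, vertical axis) stacked for the ID genes and the E protein genes in each library, and the ratio of the summed ID to the summed E protein level (right panel), with WT in blue and N275D in red. The Id3 segment is smaller in all 3 N275D libraries, the E protein bars are of like height, and the ratio runs from 4.12 to 4.54 in WT and from 2.61 to 2.73 in N275D.

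Genes around these factors were then examined in 4 lists. Over all genes tested, 24.7% were called higher in N275D and 26.1% lower, around a median of -0.0026 on the log2 scale. The members called at 2-fold and the most raised and most lowered member called were named by rule. All other genes named from the lists and from the cell type markers were chosen after their values were seen.

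Of 16 genes that act upstream of Id transcription, 14 were tested, 6 were called higher and 4 lower, and the median log2 fold change was 0.08. The lower ones included Egr3, an immediate early factor induced by T cell receptor signalling, which held 1585, 1573 and 1735 normalised reads in WT and 558, 567 and 546 in N275D. The genotypes were far apart, and the log2 fold change was -1.55 ± 0.05 (SE, limma, adjusted p = 1.67e-12). Also lower were its relatives Egr1 (log2 fold change -0.70) and Egr2 (-0.40), and Stat5a (-0.22), whereas Stat5b was higher (0.10). The most raised gene was Acvrl1, a type I receptor of the BMP and TGF-β family, with 39.3 to 56.5 normalised reads in WT and 86.9 to 104 in N275D (log2 fold change 0.92 ± 0.15, SE, limma, adjusted p = 0.000120). Also higher were the BMP receptor genes Bmpr1a (0.18) and Bmpr2 (0.26), the signal transducer Smad5 (0.17) and the repressor gene Prdm1 (0.44). Of the BMP and SMAD genes in the list, the receptor gene Acvr1 and Smad1, Smad4 and Smad7 were not called. Without N275D replicate 2, 6 genes of the list were called in place of 10.

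Of 19 genes taken as targets of E proteins, 15 were tested, 7 were called higher and 5 lower, and the median log2 fold change was 0.02. The most raised was Il7r, the receptor chain for the survival cytokine IL-7, with 594, 622 and 559 normalised reads in WT and 1557, 1430 and 1518 in N275D. All N275D libraries were above all WT libraries, and the log2 fold change was 1.34 ± 0.05 (SE, limma, adjusted p = 1.49e-11). Also higher were the cytokine signalling inhibitors Socs3 (log2 fold change 0.96) and Socs1 (0.38), the follicular homing receptor Cxcr5 (0.82), the Notch regulator Dtx1 (0.69), the repressor Gfi1 (0.50) and Foxo1 (0.40). The most lowered was Cdkn1a, the cell cycle inhibitor p21, with a log2 fold change of -0.44 ± 0.04 (SE, limma, adjusted p = 1.23e-07). Its values ran from 11650 to 12776 normalised reads in WT and from 8697 to 9124 in N275D. Also lower were Notch1 (-0.43), Lef1 (-0.43) and Bcl11b (-0.31). Bcl6, Tcf7 and Notch3 were not called. The thymic targets Rag1 and Ptcra were under 3 normalised reads in all libraries. The called genes of this list thus moved in both directions.

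Of 12 other helix-loop-helix factors, 7 were tested, and 3 were called in each direction. Hes1, a repressor induced by Notch signalling, held 83.8, 80.7 and 72.7 normalised reads in WT and 22.0, 23.1 and 21.7 in N275D. Its log2 fold change was -1.78 ± 0.16 (SE, limma, adjusted p = 1.61e-07). Bhlhe41, a repressor related to the clock factors, ran from 8.07 to 13.8 normalised reads in WT and from 23.7 to 32.9 in N275D, with a log2 fold change of 1.29 ± 0.27 (SE, limma, adjusted p = 0.000884). Also called were Twist1 (-0.60), Msc (-0.40), Hey1 (0.74) and Bhlhe40 (0.08). The median of the 7 was 0.08. When WT replicate 1 or any N275D replicate was left out, 3 members were called in place of 6.

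Of 17 cofactors and turnover genes, 15 were tested, 3 were called higher and 5 lower, and the median log2 fold change was -0.03. Lmo2, a LIM domain protein that bridges helix-loop-helix dimers to other factors, ran from 16.7 to 23.2 normalised reads in WT and from 43.4 to 51.9 in N275D. The genotypes were separated, with a log2 fold change of 1.16 ± 0.20 (SE, limma, adjusted p = 0.000140). The most lowered gene was Cdc20, an activator of the anaphase-promoting complex, with 4097 to 4201 normalised reads in WT and 3091 to 3310 in N275D (log2 fold change -0.36 ± 0.04, SE, limma, adjusted p = 1.59e-06). Also lower were Ldb1 (-0.25), the LIM domain binding partner of Lmo2, and the cell cycle ubiquitin ligase components Skp2 (-0.28) and Fzr1 (-0.16). The acetyltransferase genes did not move together, since Kat2b (0.18) and Crebbp (0.16) were higher, Kat2a was lower (-0.26) and Ep300 was not called (-0.03). Usp1, a deubiquitinase that stabilises ID proteins, did not pass the test (-0.10, limma, adjusted p = 0.0716).

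**Figure D4:**
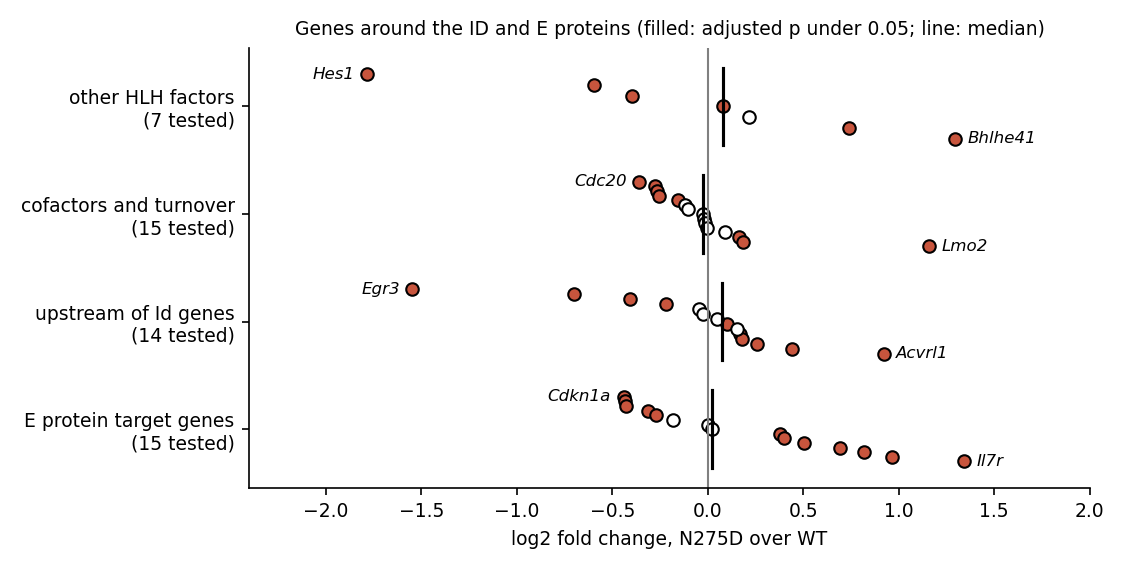
Log2 fold change of N275D over WT (horizontal axis) for the tested genes of the 4 lists, with filled points for genes at an adjusted p under 0.05 and a line for the median of each list. The list medians lie between -0.03 and 0.08, and Hes1, Egr3, Bhlhe41, Lmo2 and Il7r lie beyond a 2-fold change.

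The genes most like each member in their values over the 6 libraries were found by Pearson's r on log2 values, out of 11907 genes, and are given as a description. Those nearest to Id3 were Heg1, Rapgef1 and Akap1, each at r = 0.999, with log2 fold changes of -0.51, -0.31 and -0.46. With 2 genotypes set apart for Id3, such an r mostly restates that a gene was lower in N275D. For the members whose genotypes overlapped or lay close, the nearest genes follow the order of single libraries. They were Sox12, Rpl22 and 2810006K23Rik for Id1 (r of 0.968 to 0.987) and Ripk4, Nploc4 and Cmya5 for Id2 (0.979 to 0.990). For Tcf3 they were Tmco6, Trappc6b and Snrnp70 (0.984 to 0.988), for Tcf4 Cela1, Pex11g and Tom1l1 (0.985 to 0.991), and for Tcf12 Smpdl3b, Tti2 and Ndufa10 (0.980 to 0.990). The libraries share their depth scaling and genotype across all genes, so these values are not independent.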

How the data were processed

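Poly(A) RNA of 6 libraries was sequenced in paired ends. The authors aligned reads to mm10 (per the labels) with STAR, counted them per gene with featureCounts and divided the counts by DESeq2 size factors. Tool versions are not given in the sources used here. The deposited signal values are thus normalised reads, and 100% of them were whole multiples of the value of 1 read (tolerance 1e-06), so whole read counts were recovered for depth and for the count models. The labels name a directional kit and the methods a strand-specific one from another maker, and the strand setting of the counting is not given in the sources used here. No other gene covered exon bases of a member.

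Libraries were grouped by the genotype in their labels. limma 3.58.1 (R 4.3.3) was fitted with a trend to log2(normalised reads + 1) for genes averaging 10 or more, with no block for replicate number. For one gene, permuting 3 against 3 libraries exactly gives a two-sided p of 0.1 at the least, and this was not used. Alternatives were other pseudocounts, filters and scalings, library weights, edgeR 4.0.16 and DESeq2 1.42.0 on the recovered reads, and leaving out each library. The scripts were tested on simulated data. Levels per kb used GENCODE M21 exon lengths, and sequences and gene positions were from RefSeq on GRCm38.p6. Genes named by rule were all 6 members and, of each list, the members called at 2-fold and the most raised and most lowered called member, with the 3 genes most alike for each member. Other genes named were chosen after their values were seen. The members, lists and tests were chosen with earlier results of these data known, so no list is independent evidence. Single values of some list genes are not reported here. Deposited beside these values were log2 fold changes made by the authors, q-values (p-values adjusted over genes) and averages per genotype, none of which was used.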

Additional observations from a re-analysis of the deposited data

How the results depend on the processing

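Id3 kept its call and direction under all 17 alternatives, with log2 fold changes of -1.20 to -1.14 when single libraries were left out and adjusted p-values from 1.69e-93 to 6.94e-05 over the alternatives. Tcf4 (0.12 to 0.24) and Tcf12 (-0.11 to -0.04) remained uncalled. Tcf3 became called with quantile normalisation (0.17), library weights (0.15) and without WT replicate 3 (0.18), within a range of 0.047 to 0.18 when single libraries were left out, and the cause was not tested. The sign of Id1 (-0.17 to 0.031) and Id2 (-0.018 to 0.027) turned when single libraries were left out. For Id1 this was so without WT replicate 3 (0.023) or N275D replicate 2 (0.031), and for Id2 without WT replicate 1 (-0.018), N275D replicate 1 (-0.00018) or N275D replicate 3 (-0.00053), none of them called. Id1 had no value at a mean of at least 100, where it was not tested.

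The number of genes called at 2-fold was 427, and it was 259 with a pseudocount of 10, 703 with all genes above a mean of 0, and 162 at a mean of at least 100, where fewer genes were tested. It was 413 to 456 when single libraries were left out, 444 with edgeR and 419 with DESeq2. Genes called at any fold change numbered 5158 to 6398 without single libraries. Of the other helix-loop-helix factors, 2 were called at a mean of at least 100 and 3 to 6 without single libraries, and of the genes upstream of Id transcription 6 to 9. With longest transcripts the ID to E protein ratio was 3.60 in WT and 2.22 in N275D, and the Id3 share was 64.0% and 44.2%. By merged exons, leaving out single libraries gave ratios of 4.13 to 4.34 in WT and 2.64 to 2.70 in N275D and shares of 61.0% to 61.1% and 40.6% to 41.6%.

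With a replicate block the log2 fold change of Id3 was -1.16 and 428 genes were called at 2-fold. The deviations of libraries with the same number correlated at -0.0455, 0.0407 and -0.0828, and those of libraries with different numbers at -0.0537 to 0.0894. Whether libraries with the same number share more than that number is not given in the sources used here.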
